A study of Mus musculus with 5 samples.

Results

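Of 231437 stretches of open chromatin found in 5 mouse embryo libraries, 5736 carried a peak in every library while lying away from the ends of all protein-coding genes, and these 5736 regions are described here. They were chosen by merging the peaks of the 5 lists on chromosomes 1 to 19 and X wherever 1 bp overlapped. A region was kept when each list had a peak in it and its midpoint lay more than 2.5 kb from either end of every protein-coding gene. A peak in all 5 libraries was found in 15568 regions, 6.73% of all regions, and 9832 of these lay nearer to gene ends. Among the 203996 regions away from gene ends, 2.81% had a peak in every library. The peak calls themselves therefore chose the regions, and neither their presence nor their strength is tested.

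The assay was ATAC-seq, in which a transposase cuts accessible DNA and tags it for sequencing. All embryos were of the CD1 strain. The ectoderm libraries, 2 from distal forelimb and 2 from distal hindlimb at E14.5, came from the skin layer that trypsin had freed from the mesoderm beneath it. The 1 forebrain library came from E13.5 tissue digested with collagenase, so tissue, stage and enzyme cannot be told apart between ectoderm and forebrain. No genetic change or treatment is given for any group. Replicates are named only by number, and whether they are separate embryos is not given, so differences between them may be technical ones.

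Depth can be judged only through the background rate implied by the peak statistics, which ran from 3.1 to 4.62 reads per position. The lists held 51392 distinct peaks in hindlimb ectoderm 1 and 73627 to 120280 in the other 4 libraries. That short list bears on the count of regions: without hindlimb ectoderm 1 the rule gave 10597 regions, and without forebrain 10678. Of the 7 limb ectoderm markers, 6, 7, 4 and 6 had a peak within 1 kb of a gene end in forelimb 1, forelimb 2, hindlimb 1 and hindlimb 2, and 3 did so in forebrain (Perp, Grhl3 and Cdh1). The 6 forebrain markers numbered 6 in forebrain and at most 1 in an ectoderm library. Of the 3 mesenchyme markers, 1 to 3 were marked in each ectoderm library and 3 in forebrain. Of the 4 blood and endothelium markers, 1 or 2 were marked in each ectoderm library and 4 in forebrain. Kdr had such a peak in every ectoderm library and Tal1 in forelimb ectoderm 1, whereas Hbb-bt and Cdh5 had none in any ectoderm library. The part of these other cell types in the regions below was not tested.

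Sites that are open in unrelated tissues are usually promoters of widely used genes, where a gap in the nucleosomes is kept by general factors such as Sp1, NRF1, NF-Y and ETS proteins. Sites bound by CTCF, the zinc-finger protein that holds chromatin loops, are also shared by many cell types. Genes read by RNA polymerase III, such as those for transfer RNA, have promoters inside the gene and are active in most cells. Regions far from gene ends include in addition starts of alternative transcripts within genes, starts of non-coding RNAs, and enhancers.

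Distance from gene ends was common among regions called in few libraries and less common among regions called in all. The share lying away from gene ends was 93.4% of regions with a peak in 1 library, 90.02% with 2, 86.2% with 3, 81.5% with 4 and 36.8% with 5. At the threshold, the nearest member, at Npm2, had its midpoint 2501 bp from a gene end, and the 8 nearest members reached 2512.5 bp, at Sspn. The 8 regions just outside ran from 2494.5 to 2500 bp, the last at Lyst and Btbd6. The lowest percentile of significance over the 5 lists ran from 14.6 to 94.6 in the former and from 33.6 to 88.1 in the latter, with wide overlap. Here a percentile is the place of a region's peak among all peaks of its list by −log10 p.

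Annotated transcript starts were far more frequent in these regions than in other regions away from gene ends. RefSeq windows from 250 bases before to 50 after each start (GRCm38.p6) overlapped 973 of the 5530 regions on chromosomes with such windows, or 17.6% (95% interval 16.6 to 18.6), against 1.66% of all regions away from ends. Regions called in each of the 4 ectoderm libraries but not in forebrain, ectoderm-only regions below, stood at 1.71% (1.37 to 2.12). In forebrain-only regions, called in forebrain and in no ectoderm library, it was 1.33% (1.25 to 1.42). Starts of protein-coding genes gave 12.5%, and starts of non-coding genes 6.18%. Every region with a protein-coding start had its midpoint inside a gene body. The 2.5 kb rule held for that midpoint and was not applied to the start itself. Intervals are exact binomial ones, cover counting error only and treat regions as separate, although neighbours share genes. Without forebrain the share fell to 9.73%, and over all alternatives the ectoderm-only share was at most 2.06%.

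The windows at the strongest of these regions, by the lowest percentile over the 5 lists, are printed because they show the letters behind the shares given afterwards. Each runs 5′ to 3′ on the gene's strand, ends 50 bases into the transcript and is from RefSeq (GRCm38.p6). Capitals mark letters of the Sp (GGGCGG), ETS (CCGGAAG), NF-Y (CCAAT), NRF1 and core CTCF motifs on either strand, where neighbouring matches may overlap. Kifap3 encodes a partner of kinesin motors, Lrif1 a nuclear receptor interacting factor, Elavl2 a neuronal RNA-binding protein and Stk25 a protein kinase. 6430590A07Rik and Gm26901 are long non-coding RNAs, the former with its window beside one of Abhd18. The last pair, Echdc1 and Scn2a, was added after values were seen, for the CTCF core, which Gm26901 also holds.
Kifap3, chr1:163779333-163779632, plus strand: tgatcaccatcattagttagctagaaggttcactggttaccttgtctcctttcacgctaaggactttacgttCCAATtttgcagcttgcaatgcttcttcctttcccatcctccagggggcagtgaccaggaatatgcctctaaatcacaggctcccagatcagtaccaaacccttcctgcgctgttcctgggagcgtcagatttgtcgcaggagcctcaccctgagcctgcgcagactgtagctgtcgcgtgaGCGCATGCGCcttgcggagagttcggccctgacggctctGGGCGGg
6430590A07Rik, chr3:40894055-40894354, minus strand: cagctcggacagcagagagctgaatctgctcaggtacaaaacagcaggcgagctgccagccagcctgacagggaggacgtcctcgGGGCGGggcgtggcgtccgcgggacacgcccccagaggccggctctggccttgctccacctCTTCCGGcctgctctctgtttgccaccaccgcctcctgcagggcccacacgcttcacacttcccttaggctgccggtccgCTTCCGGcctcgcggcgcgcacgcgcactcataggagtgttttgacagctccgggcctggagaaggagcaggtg
Gm26901, chr1:7398047-7398346, minus strand: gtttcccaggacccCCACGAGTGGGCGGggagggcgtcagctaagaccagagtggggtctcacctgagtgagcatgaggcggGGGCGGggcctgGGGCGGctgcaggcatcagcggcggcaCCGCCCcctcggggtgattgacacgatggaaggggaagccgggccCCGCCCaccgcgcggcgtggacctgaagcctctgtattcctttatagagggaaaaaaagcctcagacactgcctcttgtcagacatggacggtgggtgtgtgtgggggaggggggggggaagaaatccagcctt
Lrif1, chr3:106721432-106721731, plus strand: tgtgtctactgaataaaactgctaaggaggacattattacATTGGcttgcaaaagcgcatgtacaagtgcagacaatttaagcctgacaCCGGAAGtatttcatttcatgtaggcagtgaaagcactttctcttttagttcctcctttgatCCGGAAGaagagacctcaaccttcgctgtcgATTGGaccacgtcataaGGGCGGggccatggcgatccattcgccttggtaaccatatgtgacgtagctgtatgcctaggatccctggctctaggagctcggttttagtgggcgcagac
Elavl2, chr4:91376447-91376746, minus strand: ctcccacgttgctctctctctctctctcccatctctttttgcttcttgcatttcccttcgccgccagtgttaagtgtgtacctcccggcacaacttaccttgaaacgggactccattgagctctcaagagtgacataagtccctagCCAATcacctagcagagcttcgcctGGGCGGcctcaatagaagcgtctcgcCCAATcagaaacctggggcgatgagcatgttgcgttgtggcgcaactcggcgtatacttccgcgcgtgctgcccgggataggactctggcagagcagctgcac
Stk25, chr1:93635678-93635977, minus strand: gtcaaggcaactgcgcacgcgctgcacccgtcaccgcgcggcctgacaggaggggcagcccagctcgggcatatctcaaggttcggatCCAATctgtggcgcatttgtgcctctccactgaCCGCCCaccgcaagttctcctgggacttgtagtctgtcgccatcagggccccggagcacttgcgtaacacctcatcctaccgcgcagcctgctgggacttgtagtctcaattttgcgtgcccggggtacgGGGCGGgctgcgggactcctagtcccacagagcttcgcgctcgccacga
Echdc1, chr10:29313250-29313549, plus strand: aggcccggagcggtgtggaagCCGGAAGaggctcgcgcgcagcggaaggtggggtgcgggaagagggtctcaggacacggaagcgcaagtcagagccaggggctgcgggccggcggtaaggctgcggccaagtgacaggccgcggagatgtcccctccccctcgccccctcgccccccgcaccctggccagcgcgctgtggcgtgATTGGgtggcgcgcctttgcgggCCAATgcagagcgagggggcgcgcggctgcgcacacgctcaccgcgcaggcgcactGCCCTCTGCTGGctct
Scn2a, chr2:65668436-65668735, plus strand: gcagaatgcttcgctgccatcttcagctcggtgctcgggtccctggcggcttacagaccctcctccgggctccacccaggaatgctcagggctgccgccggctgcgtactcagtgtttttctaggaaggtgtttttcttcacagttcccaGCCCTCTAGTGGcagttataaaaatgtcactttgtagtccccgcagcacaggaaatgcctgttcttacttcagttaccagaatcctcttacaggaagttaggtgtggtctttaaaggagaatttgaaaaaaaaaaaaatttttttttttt

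The 1223 windows away from gene ends that overlapped one of the regions were rich in G and C. Their median GC content was 60.7% (59.7 to 61.3), against 46.7% (46.3 to 46.7) in 8480 windows away from gene ends that overlapped no peak. The median ratio of observed to expected CpG was 0.70 in the former and 0.20 in the latter. The Sp letters stood in 60.3% (57.5 to 63.1) of windows at these regions, 6.82% (6.29 to 7.37) of those without a peak and 15.7% of all 12262 windows away from gene ends. The ETS letters followed the same order at 10.9%, 2.28% and 3.42%, and the NRF1 letters at 1.06%, 0.106% and 0.196%. The CTCF core was found in 3.68% (2.70 to 4.89), 1.89% (1.61 to 2.20) and 2.58%. Windows at other peaks are not given apart. The CTCF shares therefore do not show whether the core is more frequent at these regions than at other peaks. NF-Y letters, which hold no CpG, were as frequent with as without a region, at 35.6% (32.9 to 38.3) and 37.1% (36.1 to 38.1). AP-1 letters (TGANTCA) were less frequent at these regions, 5.48% (4.27 to 6.91) against 10.4% (9.76 to 11.1). Base composition differed between the sets of windows, and its part in these shares was not tested. YY1, p53 family and RFX letters each stood in at most 6 of the 1223 windows.

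Summits sat close to the starts. The strongest summit lay within 250 bp of a start in 14.4% (13.4 to 15.3) of regions, against 1.39% of all regions away from ends, a distance chosen after values were seen. Grades of strength come from the same calls that chose the regions and are given as a description. Where the lowest percentile over the 4 ectoderm lists was 90 to 100, 34.1% (30.3 to 38.0) of these regions and 2.64% (0.976 to 5.66) of ectoderm-only regions had a start there. At percentiles 0 to 25 the shares were 6.81% (4.99 to 9.04) and 1.24% (0.536 to 2.43). Graded by forebrain percentile, the share was 33.2% at 90 to 100 and 1.48% at 0 to 50, against 3.36% and 0.817% in forebrain-only regions. At forebrain percentiles 0 to 50 the intervals came closest, 0.810 to 2.47 against 0.736 to 0.904, and overlapped.

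**Figure D1:**
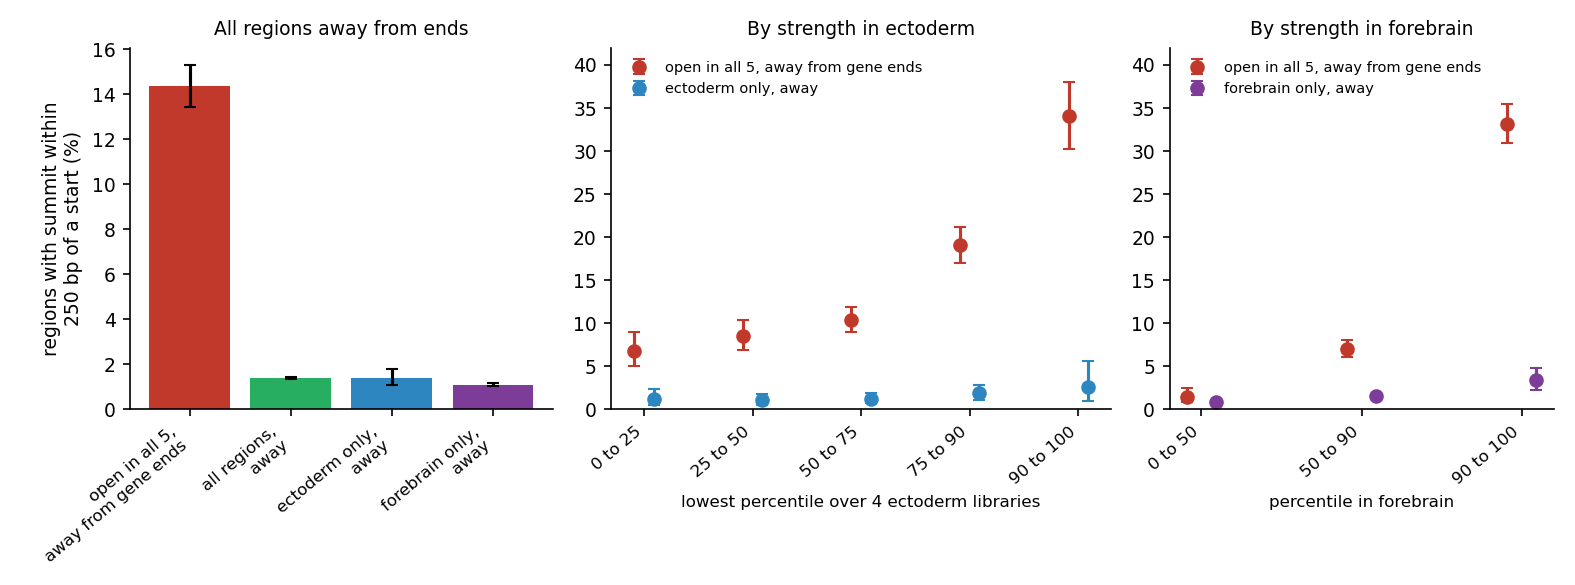
Share of regions (y axis, %) whose strongest summit lies within 250 bp of an annotated start, for all regions away from gene ends (left) and by percentile of significance in ectoderm (middle) or forebrain (right). Bars and points are shares with exact 95% intervals; regions open in all 5 libraries reach 14.4% overall and 34.1% in the highest ectoderm grade, where ectoderm-only regions reach 2.64%.

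Regions with a start were also the stronger ones, which describes the chosen set and is no test. The median of the lowest percentile was 79.3 in 631 regions with a protein-coding start only, 70.6 in 281 with a non-coding start only, 85.0 in 61 with both and 53.3 in the 4557 with none. Median forebrain fold enrichment, the height of a summit over its local background, was 11.9 with a protein-coding start, 10.45 with a non-coding start and 6.80 with none. In hindlimb ectoderm 1 the same medians were 4.62, 4.22 and 3.84. Median peak width was 587 bp with a protein-coding start and 379 bp with none. Folds and widths belong to their own lists.

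Among single starts, the Kifap3 region had folds of 25.4 and 23.3 in forelimb ectoderm, 17.9 and 26.6 in hindlimb ectoderm and 23.3 in forebrain. Ranked among the 5736 regions by fold within each list, where 100 is the highest, it stood between 99.7 and 99.9 in all 5. The 6430590A07Rik and Abhd18 region had folds of 25.9, 23.2, 22.7, 26.3 and 22.9 in the same order of libraries, and ranks from 99.7 to 99.9. Lrif1 had 18.9, 17.2, 12.5, 17.2 and 18.1, and the 5 summits lay within 24 bp. Elavl2 had 17.2, 18.5, 13.3, 19.5 and 12.96, with a rank of 83.5 in forebrain below 98.9 to 99.4 in ectoderm. Stk25 had 16.5, 17.1, 12.4, 20.8 and 17.6, and its forebrain rank of 96.3 was again the lowest. Hsf2, a heat shock transcription factor, had 16.9, 14.7, 11.5, 17.6 and 17.4. Tiprl, a regulator of phosphatases in TOR signalling, had 16.95, 15.9, 11.9, 20.7 and 18.5, with ranks of 97.4 and above. In all these but Elavl2, hindlimb ectoderm 1 held the lowest fold of the 5, as it had the lowest median fold over all regions (3.93, against 5.91 to 7.53 in the others).

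Echdc1, a metabolite-repair enzyme of the cytosol, had folds of 11.5, 13.1, 10.7, 14.6 and 16.4 at a region with 3 windows, where the 5 summits spread over 276 bp. Scn2a, a voltage-gated sodium channel of neurons, had 18.5, 16.0, 10.51, 18.6 and 18.2. The 5 summits of the Scn2a region lay within 18 bp, and its ranks ran from 97.1 in forebrain to 99.3 in forelimb ectoderm 1. Both windows hold the CTCF core, which is a match of letters and not a measured binding site.

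Starts of long non-coding RNAs included several of known place. Chaserr, the non-coding RNA beside the chromatin remodeller gene Chd2, lay in a region at chr7:73557751-73559107 with folds of 17.1, 14.8, 13.4, 19.03 and 16.1. BC002059, at chr17:16951009-16951860, had 23.9, 22.5, 14.1, 24.8 and 21.9 and ranks from 99.4 to 99.8. Gm41209 had 16.8, 16.7, 14.3, 20.4 and 24.6, with forebrain highest. Rab10os, antisense to a small GTPase gene, had 11.4, 15.1, 8.94, 13.2 and 9.75, and its forebrain rank of 66.3 lay below 91.2 to 98.3 in ectoderm. A pair of regions near Trim43a and Trim43c, each with 2 non-coding windows, ranked between 99.3 and 99.8 in every list. They lie in a gene family of near-identical copies, so reads there may be shared between copies.

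**Figure D2:**
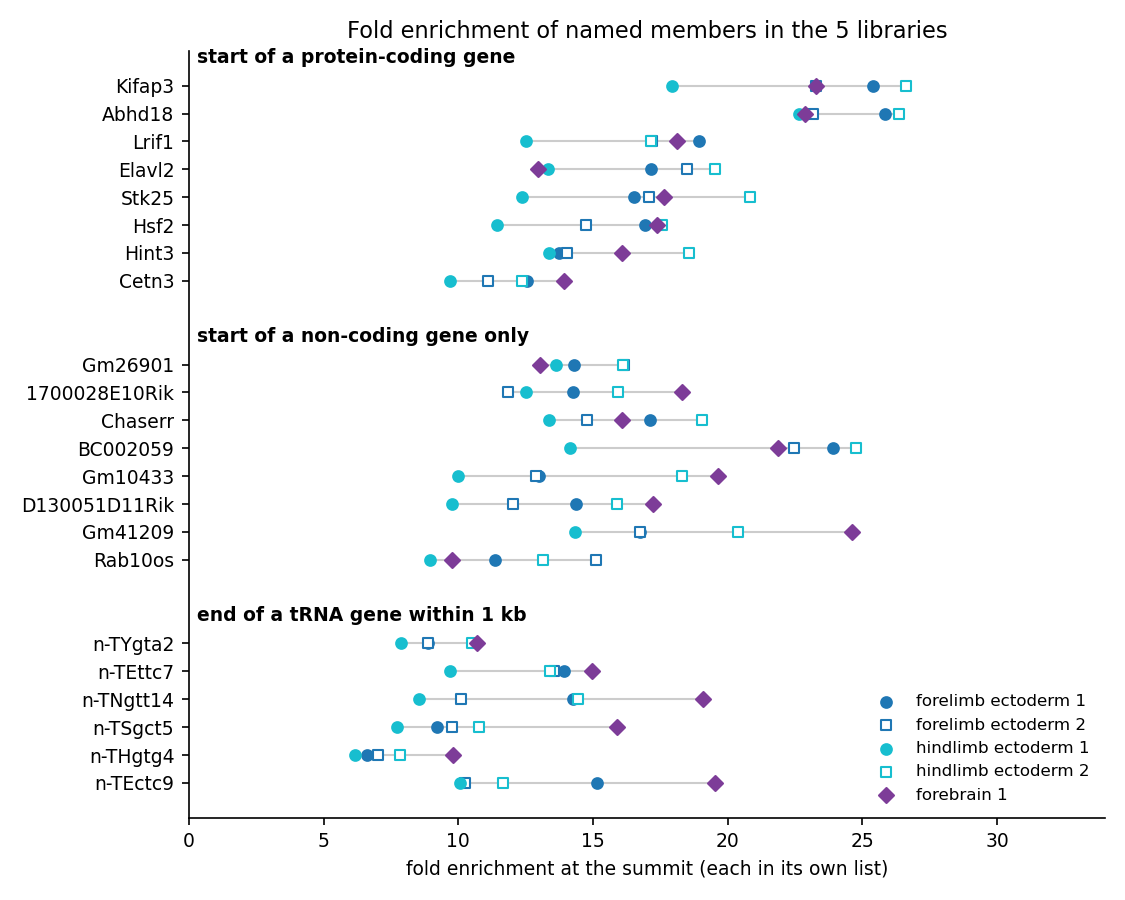
Fold enrichment at the summit (x axis, linear) in each of the 5 libraries for the strongest regions at starts of protein-coding genes, at starts of non-coding genes only, and near tRNA genes (y axis). Grey lines join the lowest and highest library; hindlimb ectoderm 1 is lowest in most rows, and Kifap3 runs from 17.9 to 26.6.

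Ends of genes that are not protein-coding, which the rule did not use, lay within 1 kb of the midpoint in 732 regions, or 12.8% (11.9 to 13.7). Over all regions away from ends the share was 4.84%, with 4.54% (3.98 to 5.15) for the ectoderm-only set and 4.37% (4.22 to 4.52) for the forebrain-only set. Shared regions nearer to protein-coding ends had 14.1% (13.4 to 14.8), so the share was not particular to regions away from them. Long non-coding RNA genes accounted for 547 regions, 9.54% (8.79 to 10.3) against 3.23%, and 12.1% of shared regions nearer to protein-coding ends. Small nuclear RNA genes, which make the RNA of the spliceosome, accounted for 25, 0.436% (0.282 to 0.643) against 0.0691%. Transcribed pseudogenes stood at 0.471% and 0.0784%. Other pseudogenes, at 1.08% (0.830 to 1.38) and 1.04%, and small nucleolar RNA genes, at 0.192% (0.0958 to 0.343) and 0.213%, were about as frequent as in the background.

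An end of a transfer RNA gene lay within 1 kb of 72 regions, 1.26% (0.983 to 1.58), against 0.0966% of all regions away from ends and 0.387% (0.274 to 0.530) of shared regions nearer to protein-coding ends. It was 0.101% (0.0328 to 0.235) for ectoderm-only regions. Forebrain-only regions stood at 0.0417% (0.0281 to 0.0595). Of the 334 tRNA genes away from protein-coding ends, 105 (31.4%, 26.5 to 36.7) were within 1 kb of one of the regions. Within 1 kb of any region away from ends were 214 (64.1%). A forebrain-only region lay as near to 39 (11.7%) and an ectoderm-only region to 6 (1.80%). The tRNA analysis was chosen after values were seen. The share was 0.793% without hindlimb ectoderm 1, 0.749% without forebrain and 0.716% more than 10 kb from gene ends, with the ectoderm-only share at most 0.141% over the alternatives.

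The tRNA regions were clustered, so they are not separate observations. Of the 72, 25 were on chromosome 13 and 25 held 2 or more tRNA genes. The stretch from 21 to 22 Mb of chromosome 13 held 15 regions, the most of any 1 Mb, where 2 is the median over stretches with any, and 14 of these 15 were near tRNA genes. Their median fold was 5.81, 5.32, 3.92 and 6.69 in the ectoderm libraries and 8.88 in forebrain. Median ranks among the 5736 regions were 40.3 to 49.5 in ectoderm and 60.3 in forebrain, so by fold tRNA regions were of middling strength in ectoderm. By significance, their median lowest percentile over the 5 lists was 71.9, against 57.2 over all 5736.

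Over the 72, the fold was highest in forebrain at 56 (77.8%) and lowest in hindlimb ectoderm 1 at 55 (76.4%). Over all 5736 regions the same counts were 3037 (52.9%) and 3935 (68.6%), and folds belong to their own lists. At n-TYgta2, a tyrosine tRNA gene, a region with 4 tRNA genes at chr3:19627829-19629412 had folds of 8.86, 8.87, 7.87, 10.497 and 10.7. At n-TEttc7, for glutamate, the folds were 13.9, 13.6, 9.701, 13.4 and 14.98. At n-TNgtt14, for asparagine, they were 14.2, 10.1, 8.53, 14.4 and 19.1. The serine gene n-TSgct5 lies in the chromosome 13 group, at chr13:22050625-22051518, with 9.20, 9.78, 7.73, 10.8 and 15.9. These 4 were chosen after values were seen. In each of them the forebrain fold was highest and the hindlimb ectoderm 1 fold lowest. By rank among the 5736 regions the order differed. Forebrain was lowest and hindlimb ectoderm 1 highest at n-TYgta2 (72.4 and 93.8) and n-TEttc7 (90.2 and 97.4). Forebrain ranked highest at n-TNgtt14 (97.9), and hindlimb ectoderm 1 at n-TSgct5 (93.4, with 92.7 in forebrain). The forebrain fold was lowest at 1 of the 72, near n-TAagc13, for alanine, with folds of 4.56, 5.94, 4.53, 5.55 and 3.33. tRNA genes are near-identical copies, so reads may be split between them.

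**Figure D3:**
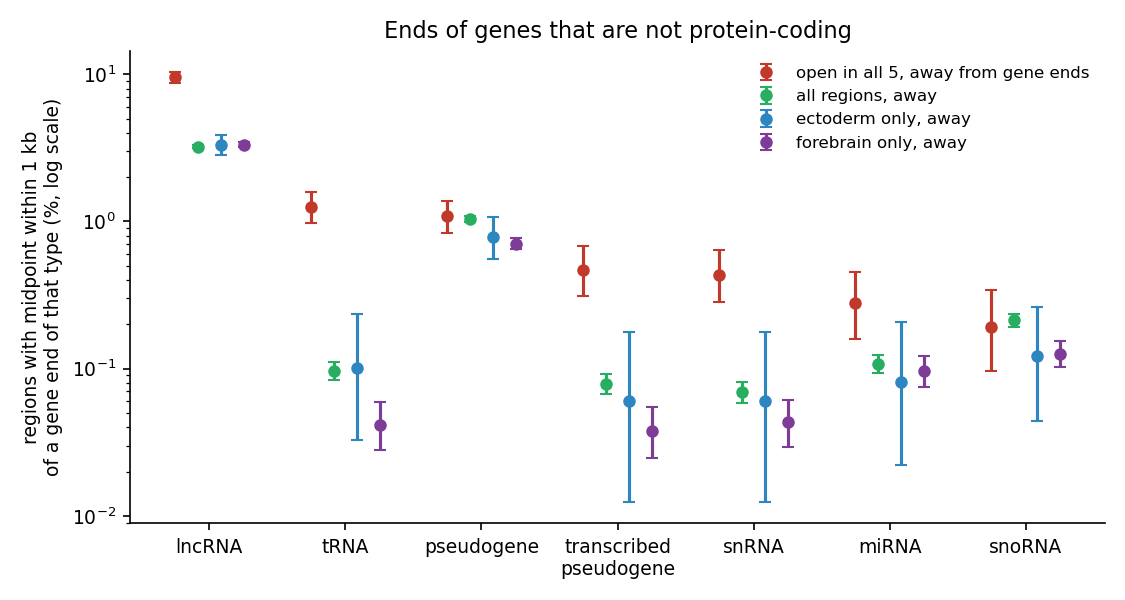
Share of regions (y axis, %, log scale) with a midpoint within 1 kb of an end of a gene of each non-coding type (x axis), with exact 95% intervals, in 4 sets of regions. Regions open in all 5 libraries lie above the other sets for lncRNA (9.54% against 3.23% of all regions away from gene ends) and tRNA (1.26% against 0.0966%), while pseudogene and snoRNA intervals overlap those of all regions.

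MicroRNA hairpins lay in 9 regions, 0.157% (0.0718 to 0.298), against 0.0353% of all regions away from ends and 0.498% (0.369 to 0.658) of shared regions nearer to protein-coding ends. The mature sequences of the 3 best known in this setting are printed with the seed, bases 2 to 8, in capitals, because the seed chooses a microRNA's targets. Mir210 answers to low oxygen, Mirlet7i belongs to the let-7 family and Mir203 restrains stem-like growth in the epidermis. The 3 seeds differ.
mmu-miR-210-3p: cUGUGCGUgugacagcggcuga
mmu-let-7i-5p: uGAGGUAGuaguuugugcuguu
mmu-miR-203-3p: gUGAAAUGuuuaggaccacuag

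The Mir210 region, at chr7:141221467-141222396, had folds of 11.7, 11.2, 7.29, 12.04 and 16.8. Its lowest percentile over the lists was 97.5. The Mirlet7i region had 4.51, 4.10, 4.98, 4.57 and 8.78, with ranks of 18.7 to 73.2 in ectoderm and 59.4 in forebrain. The Mir203 region, at chr12:112130131-112131010, had 4.04, 2.47, 3.11, 4.50 and 4.37, and its lowest percentile was 17.7. It was therefore weak in all 5 libraries, and its 5 summits were spread over 560 bp. The other hairpins in such regions were Mir760, Mir713, Mir6387, Mir344-2, Mir128-2, Mir1983 and Gm51289, the last in the Mir203 region.

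From the list of long non-coding RNAs and small RNA hosts, 5 genes had a region within 1 kb of an end. Kcnq1ot1, an imprinted antisense RNA, had folds of 9.28, 7.40, 6.11, 11.7 and 13.1 at chr7:143296226-143296906, and its summits lay within 37 bp. Mir22hg had 8.95, 7.85, 6.37, 11.2 and 12.7. Malat1, an abundant nuclear RNA, had 8.21, 4.403, 6.54, 8.45 and 9.57 at a region 950.5 bp from an end. Dleu2, a host of microRNAs, had 4.84, 4.20, 3.86, 4.71 and 5.72. The fifth was Mir203, given above.

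Of the 5736 regions, 4557 (79.4%) overlapped no annotated start and 206 were on chromosome 18, where starts were not used here. A protein-coding gene held the midpoint of 50.1% (48.8 to 51.4), against 44.8% of all regions away from ends. For ectoderm-only regions this was 43.5% (42.1 to 44.9), and for those found in forebrain alone 47.6% (47.2 to 48.0). Beyond 100 kb of any protein-coding gene were 11.96% (11.1 to 12.8), against 23.9%, 21.9% and 25.3%. Chromosome X held 2.32% (1.94 to 2.74), against 1.3% of all regions away from ends. Among regions without an annotated start, 44.2% lay inside a gene.

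Regions with no annotated start were also ranked, leaving out those whose local background exceeded 2 times the library's rate in all 5 libraries. This choice was made after values were seen. The 8 strongest had summits in close register, within 9 to 63 bp, and 4 of them follow. Their lowest background over the 5 libraries was 1.95 times the rate at Chl1, 1.81 at Asah1, 1.74 at Chd8 and 1.61 at Nsd1. The median over all 5736 regions was 1.35. A region inside Asah1, the acid ceramidase gene, at chr8:41374054-41375190 had folds of 20.7, 18.8, 15.8, 23.8 and 20.4 with summits within 12 bp. A region inside the neural adhesion gene Chl1, at chr6:103649021-103649387, had 36.0, 35.7, 34.4, 36.6 and 29.3 with summits within 13 bp. Its background was just under the cut. Its hindlimb ectoderm 1 fold stood close to the other ectoderm folds, unlike the medians over all regions (3.93 against 5.91 to 6.83). Whether reads at Chl1 come from several copies of the sequence was not tested. A region inside Chd8, a chromatin remodeller gene, had 16.3, 14.47, 10.9, 17.7 and 21.9, and its summits lay within 14 bp. The region 19.4 kb from Nsd1, a histone methyltransferase gene, had 14.2, 13.9, 11.4, 14.52 and 20.4. Forebrain was the lowest library at Chl1 and the highest at Chd8 and Nsd1.

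Across all regions, the 4 ectoderm summits were spread over a median of 48 bp (46 to 49). The spread was 38 bp (37 to 39) in shared regions nearer to gene ends and 50.5 bp (49 to 52) in ectoderm-only regions. It followed strength: it was 135 bp at ectoderm percentiles 0 to 25, 46 bp at 50 to 75 and 25 bp (24 to 26) at 90 to 100. In the last grade, shared regions nearer to gene ends had 26 bp (25 to 26) and ectoderm-only regions 27 bp (25 to 30), which overlap. Over all 5 libraries the median was 69 bp, 37.1% of regions had all summits within 50 bp, and the upper quartile was 203 bp, so some merged regions join peaks at different places.

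Strength varied more between forebrain and ectoderm than within ectoderm. Spearman correlations of rank across the 5736 regions, given as a description over regions that share libraries, were 0.636 to 0.791 between ectoderm libraries and 0.305 to 0.409 between forebrain and an ectoderm library. The median range of the 5 ranks was 41.0 points, and 847 regions (14.8%) stayed within 20 points. Forebrain held the highest rank by more than 25 points at 480 regions (8.37%) and the lowest by as much at 599 (10.4%). Single ectoderm libraries did so at 0.628% to 1.97% and 0.732% to 2.91%, with hindlimb ectoderm 1 at the upper bound of both. These counts are not on an equal footing. Each ectoderm library has others of its tissue among the 5, and forebrain has none. The 25-point gap was chosen after values were seen. With 1 forebrain library, a difference of forebrain from ectoderm cannot be told apart from a property of that library.

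Starts followed these rank classes. A start window overlapped 36.0% (32.7 to 39.4) of regions whose ranks stayed within 20 points and 24.6% (20.8 to 28.8) of those with forebrain highest. It overlapped 6.43% (4.57 to 8.76) of those with forebrain lowest. Of that last class, 20.4% lay beyond 100 kb of a protein-coding gene, against 11.96% of all 5736. Ranked among the 5736 by fold, 159 regions stood in the top 10% in all 5 libraries, of which 51 had a protein-coding start only and 78 had none. In the bottom 10% in all 5 stood 18. Regions of either kind fall in the class within 20 points, whose median width was 536 bp, against 403.5 bp over all 5736. The rank classes were not matched for strength, and starts were more frequent in stronger regions.

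**Figure D4:**
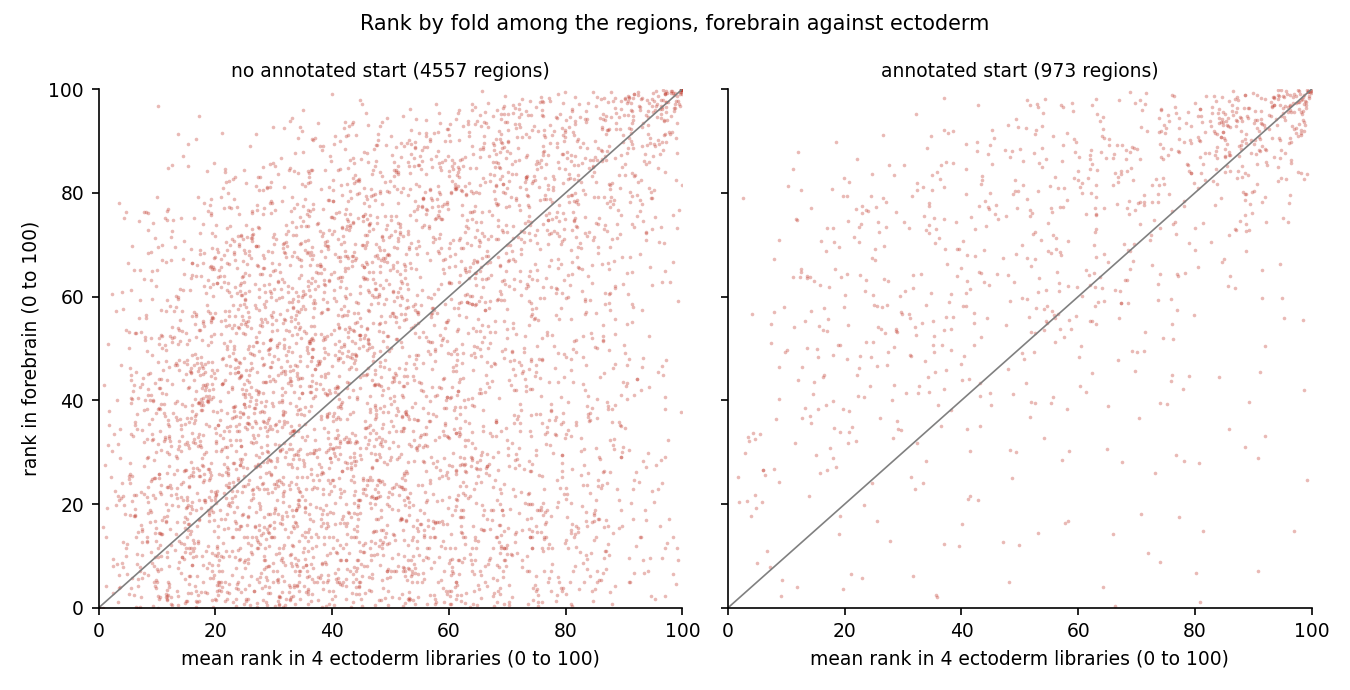
Rank by fold among the 5736 regions in forebrain (y axis, 0 to 100) against the mean rank in the 4 ectoderm libraries (x axis, 0 to 100), one point per region, for 4557 regions without and 973 with an annotated start. The line marks equal ranks; regions without a start fill the plane, and those with a start crowd at the upper right.

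The 10 regions with the lowest forebrain rank relative to ectoderm all lacked an annotated start. Inside Crim1, a cell-surface regulator of BMP signals, a region at chr17:78255619-78256098 had folds of 13.2, 14.8, 8.46 and 20.2 in ectoderm and 2.55 in forebrain. Its rank was 95.3 to 99.3 in ectoderm and 2.21 in forebrain. A region 57.4 kb from Rgs1 had 21.4, 19.2, 9.97, 18.2 and 2.84. Inside Prkci, an atypical protein kinase C of epithelial polarity, the folds were 14.0, 13.8, 7.06, 13.6 and 2.56. Inside the ceramide synthase gene Cers6 they were 11.8, 12.7, 8.33, 16.9 and 2.49, and inside Arl13b, a GTPase of cilia, 19.3, 17.4, 10.7, 22.4 and 3.20. These regions are shared by the rule, yet their forebrain peaks are among the weakest, with forebrain ranks of at most 11.4 over the 10. The remaining ones were at or near Pip4p2, Mid1 and Rere, with 2 more than 100 kb from a gene.

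At the other extreme, a region at chr9:23083438-23083983, 139.4 kb from a protein-coding gene and inside the non-coding gene Gm36743, had 3.64, 3.47, 3.01 and 3.57 in ectoderm and 17.8 in forebrain. Its ectoderm ranks were 6.65 to 16.4 and its forebrain rank 96.6. A region 5.7 kb from Oat, ornithine aminotransferase, had 3.25, 2.89, 3.15, 5.13 and 15.4. One 58.2 kb from Usp46, a deubiquitinating enzyme, had 5.13, 4.36, 2.62, 3.67 and 16.8. At the non-coding start of Gm40716, near Onecut3, a homeodomain factor, the folds were 2.27, 2.38, 2.77, 2.99 and 11.9. Of these 10, 3 overlapped a start, each of a non-coding gene (Gm40716, Gm14403 and Gm39056). The groups did not overlap in any of the 20 by the way they were chosen.

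Several of the strongest regions lay where the local background, the read level that the peak caller expects from the surroundings, was itself raised. It exceeded 2 times the library's rate in all 5 libraries in 744 regions, 12.97% (12.1 to 13.9), and in 34.2% of shared regions nearer to gene ends. The share was 7.90% more than 10 kb from gene ends. Of the 15 regions with the highest lowest percentile, 12 exceeded it, the others being those at Kifap3, 6430590A07Rik and Asah1. Beside the 18S ribosomal RNA sequence Rn18s-rs5, at chr17:39843086-39846841, the background was at least 183.8 times the rate. The folds there were only 2.70, 2.83, 2.70, 2.62 and 2.62 although the percentiles were 99.9 and above, and a neighbour reached 167.7 times. The region at chr2:98666184-98667406, 1035.1 kb from any protein-coding gene, had 22.6 times and folds of 14.0, 13.9, 13.8, 13.45 and 14.8. One at chr1:24612457-24613559 near Gm10222 had 18.1 times and folds of 22.0, 22.4, 22.2, 22.5 and 44.3. Inside Filip1l, at chr16:57391087-57391773, the background was 6.14 times and the folds 35.7, 35.3, 36.9, 36.5 and 34.6. Inside Zc3h7a they were 26.9, 23.9, 28.0, 26.5 and 31.8, and inside Cdk8, the Mediator kinase gene, 25.2, 23.1, 22.5, 21.5 and 26.3. At several of these hindlimb ectoderm 1 was not below the other ectoderm libraries, unlike at the starts above. Whether reads there come from several copies of the sequence was not tested.

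**Figure D5:**
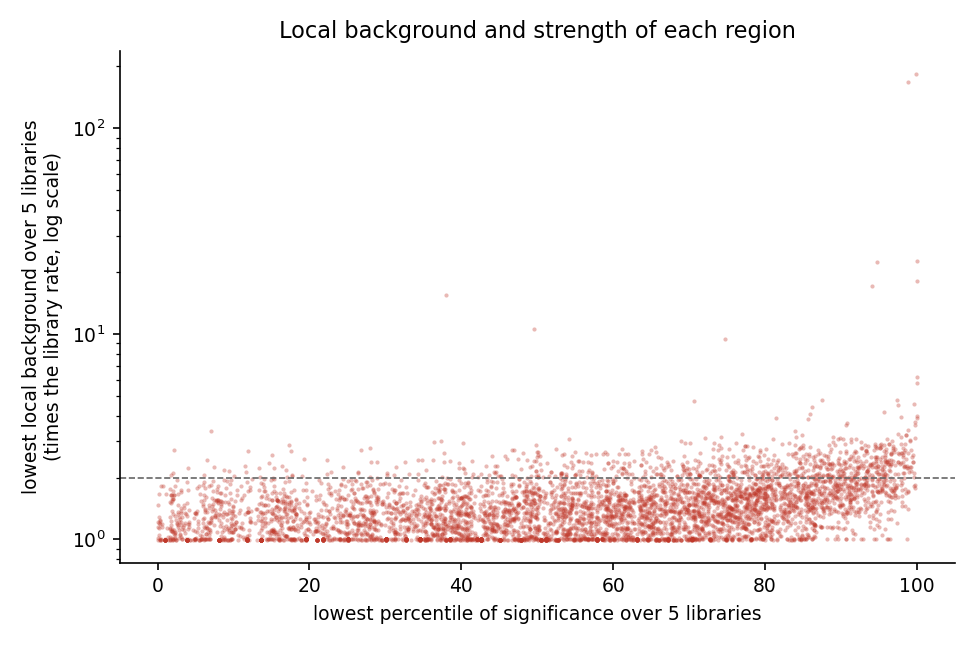
Lowest local background over the 5 libraries, as a multiple of the library rate (y axis, log scale), against the lowest percentile of significance over the 5 lists (x axis), one point per region. The dashed line marks 2 times; 744 of 5736 regions lie above it, and the highest points, at 183.8 and 167.7, are beside Rn18s-rs5.

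The regions fell on 3686 protein-coding genes (nearest within 100 kb), of which 2774 had 1 and 35 had 5 or more. Pde4d, a cAMP phosphodiesterase, and Gpc5, a glypican, had 9 each, among 130 and 164 regions away from ends. Both are long genes, of 1301.8 and 1433.0 kb. The muscle and neural factor gene Mef2c had 8 of 54. Chd2 had 7 of 25, or 28.0%, and Sfi1, a centrosome gene, 7 of 37, or 18.9%, where the background was 2.81%. That background includes regions beyond 100 kb of any protein-coding gene, which the counts per gene leave out. Genes were named here for having the most regions, so shares above the background follow in part from that choice. Dlgap1, Nfia, Tenm2 and Lsamp had 7 each, at 3.57% to 7.61% of their regions.

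At Pde4d the strongest with no start, at chr13:109822111-109822911, had folds of 14.7, 13.1, 7.01, 13.54 and 15.05 with summits within 9 bp. At Chd2 a region inside the gene, at chr7:73537595-73538304, had 12.1, 8.72, 10.1, 14.2 and 19.4, and 5 more lay 47.6 to 86.5 kb away. Of the 7 at Sfi1, 4 had a background above 9 times the rate, with 1 at 17.1 times, and folds from 1.51 to 5.17 over the 4 and the 5 libraries.

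Fixed gene lists were read against the same 2.81%. Regions beyond 100 kb of any protein-coding gene, which lists of protein-coding genes leave out, made up 23.9% of all regions away from ends. They made up 11.96% of the 5736, so a background limited to 100 kb would lie above 2.81%, and it was not computed. Housekeeping genes had 5 of 59 regions (8.47%, 2.81 to 18.7), from 3 of 20 genes. Architectural genes had 8 of 115 (6.96%, 3.05 to 13.2), from 8 of 19. Imprinted genes had 13 of 186 (6.99%, 3.77 to 11.7), clustered repeat families 12 of 182 (6.59%, 3.45 to 11.2) and the non-coding list 8 of 143 (5.59%, 2.45 to 10.7). Epidermis genes had 14 of 337 (4.15%, 2.29 to 6.87), neuron genes 20 of 562 (3.56%, 2.19 to 5.44), boundary model loci 7 of 197 (3.55%, 1.44 to 7.18) and forebrain progenitor genes 6 of 277 (2.17%, 0.799 to 4.66). The intervals of the last 4 and of housekeeping and non-coding genes hold 2.81% or touch it. The architectural interval starts at 3.05%, too near 2.81% to be read as above a background limited to 100 kb. The repeat family count rests on Sfi1, with 7 of 12.

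Among architectural genes, Stag1, a cohesin subunit, had a region at a start inside the gene with folds of 9.49, 9.23, 8.72, 13.2 and 12.1. Rad21, another cohesin subunit, had 1 at 21.3 kb with 8.99, 12.5, 7.03, 13.1 and 5.81, lowest in forebrain. Yy1, a zinc-finger factor of promoter and loop contacts, had 1 at 35.0 kb with 10.0, 8.69, 5.56, 9.40 and 16.9. Among imprinted genes, Gnas, a G protein subunit, had 3, the strongest with 8.44, 7.04, 5.95, 9.20 and 10.6. A region inside Snrpn, a spliceosomal protein gene, had 10.52, 9.97, 4.85, 11.4 and 17.3 at chr7:60244232-60244726.

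Tissue genes show that a shared call does not mean equal strength. Inside Dsp, the desmosomal plaque gene, a region had 7.69, 7.68, 6.99, 13.1 and 4.84, with ranks of 69.3 to 92.4 in ectoderm and 26.7 in forebrain. Inside Cdh1, the epithelial cadherin gene, the folds were 8.31, 7.01, 3.71, 9.50 and 2.67, and the forebrain rank was 3.29. Tfap2a, a transcription factor of ectoderm, had 3 regions, the strongest with 6.302, 6.79, 5.08, 6.51 and 13.2, highest in forebrain. Inside Pax6, a factor of eye and forebrain, the folds were 4.12, 4.65, 3.21, 3.77 and 8.30. A region 42.1 kb from Otx2, a factor of the anterior brain, went the other way, with 8.39, 8.51, 6.74, 10.7 and 5.82 and ranks of 75.5 to 89.6 in ectoderm and 35.2 in forebrain. One 40.5 kb from Emx2, a cortical factor, had 4.91, 4.03, 2.40, 4.69 and 4.69. At Lhx2, a forebrain factor that hair follicles also use, a region with both kinds of start had 5.37, 5.92, 4.98, 8.43 and 8.98.

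Among loci used as models of domain boundaries, 15 of 23 had a region within 100 kb, counted also where another gene was nearer, and 8 had none. Those with none were Epha4, Pax3, Ihh, Kcnj2, Shh, Mnx1, Myc and Hoxb13. The loci are not separate observations. Xist and Tsix had the same strongest region, and Hoxd13 and Evx2 the same single one. By nearest gene, only 6 of the 23 loci had a region, with the 7 of 197 given above. The share of all genes with a region within 100 kb was not computed, so 15 of 23 has no background to be read against. The strongest region at these loci was in Firre, a non-coding gene of the X chromosome known for rows of CTCF sites. It lay at chrX:50634918-50635721 with folds of 14.6, 17.6, 11.2, 17.8 and 16.5. Near Lmbr1, the gene that holds the limb enhancer of Shh, a region 33.9 kb away had 11.1, 9.35, 6.51, 13.48 and 16.8. Inside Lmna, for nuclear lamin, the strongest of 3 had 12.2, 10.8, 4.56, 12.1 and 9.87. At Tsix, the antisense RNA of Xist, the strongest of 3 had 7.08, 6.20, 5.59, 10.7 and 5.34. Hoxc13, the HoxC gene of hair and nails, had 1 region, 81.2 kb away at chr15:102839682-102840134, with 4.31, 4.01, 2.85, 3.09 and 2.31. Its lowest percentile was 1.006 and its forebrain rank 0.819, so it was among the weakest calls of the set.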

How the data were processed

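ATAC-seq peak lists of 5 libraries were used, 1 list a library, with no pooling of replicates. Per the submitters' processing notes, MACS2 2.1.1.20160309, Bowtie2 2.3.5, cutadapt 1.16, bedtools and Picard were used, with mm10 as the build; read shifting and the peak-calling settings are not given in the sources used here. No list as deposited has a header line, and all follow the narrowPeak layout, in which the score is the peak caller's rescaled significance; it was not used. The fold enrichment at the summit and the −log10 p and −log10 q of each peak are values the authors' peak caller made, and they describe peaks within their own list. The lowest −log10 q in each list lay between 1.30107 and 1.30584, a q-value threshold of 0.05.

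From these, rows on chromosomes 1 to 19 and X were merged and members chosen as the report states, with RefSeq gene ends (GRCm38.p6, the assembly of mm10). The local background of each peak was solved from its fold and its Poisson p, which met 99.996% of rows within 0.01 or 0.1%. Lists differ in length and depth, so strength is given as a percentile within a list or a rank by fold among members. For counts per gene, a region went to its closest protein-coding gene, up to 100 kb away. Promoter windows cover no gene of chromosome 18. The members and gene lists were chosen with earlier results of these data known. Regions named are the 15 with the highest lowest percentile, the 10 with forebrain farthest above and the 10 farthest below ectoderm in rank, the 8 on each side of the distance threshold, the 10 genes with most regions, and regions at listed boundary and non-coding loci; some items under this rule are not reported here. Other named starts, tRNA genes and list genes were chosen after values were seen. No test was run, because the calls chose the regions, forebrain has 1 library and regions are not replicates; intervals are exact binomial or order-statistic 95% intervals. The merging of peaks and the solving of the background were tested on simulated data. Python 3.11.15, pandas 2.3.3 and scipy 1.17.1 were used.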

Additional observations from a re-analysis of the deposited data

How the results depend on the processing

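Of 117 values under alternatives for 8 results, 63 stayed within the 95% interval of the value reported or, for the count of regions, within 1.5 times. The results on starts, tRNA genes and rank correlations were added after seeing the data. Requiring −log10 q of 5 or more gave 3397 regions, 53.1% inside genes, 15.0427% at non-coding ends, 1.65% at tRNA genes, 23.1% at a start, a width of 458 bp, a summit spread of 36 bp and 18.8% with raised background. Lists cut to equal length gave 52.3%, 15.4%, 1.71%, 23.8%, 435 bp, 41 bp and 17.3% in the same order, with 3911 regions. At more than 1 kb from gene ends, 54.5% lay inside genes, 21.7% had a start, width was 414 bp and 16.6% had raised background. At more than 5 kb these shares were 48.2%, 15.5% and 10.03%. At more than 10 kb they were 46.4%, 13.4% and 7.90%, with 11.6% at non-coding ends, 0.716% at tRNA genes and a width of 398 bp. With ends of genes of every type, 54.3% lay inside genes, 13.07% had a start, width was 394 bp and 11.4% had raised background. Without regions of raised background, 47.2% lay inside genes, 11.498% at non-coding ends, 0.861% at tRNA genes and 14.7% at a start, with a width of 391 bp. Leaving out each library in turn gave 5909 to 10678 regions, 47.02% to 50.03% inside genes, 8.93% to 12.6% at non-coding ends, 0.749% to 1.25% at tRNA genes and 9.73% to 17.2% at a start. Width ran from 363.5 to 404.5 bp, summit spread from 34 to 48 bp and raised background from 11.4% to 13.3%. The cause of these shifts was not tested. Over the alternatives run, the lowest rank correlation between ectoderm libraries was 0.58 to 0.69 and the highest between forebrain and ectoderm 0.36 to 0.49. No paired analysis was possible because each library has its own peak list, no result comes from a test between groups, and forebrain has 1 library. Depth is unknown beyond the background rate, so a missing peak does not show closed chromatin.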
